A study of Mus musculus with 48 samples.

Results

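The Kv1 family was examined as 6 pore-forming potassium channel genes (Kcna1 to Kcna6) and 3 cytoplasmic beta subunit genes (Kcnab1, Kcnab2 and Kcnab3), 9 of the 18883 genes named on a mouse whole-genome expression array. Every probe whose RefSeq accession belonged to these genes was kept, which gave 10 of 41174 probes, with 2 probes for Kcnab1 and 1 for each other gene. Expression was measured in frontal cortex and hypothalamus of 24 adult mice, all killed after 12 h of sleep deprivation (SD). In the 8 Per3 5/5 mice (labelled Boxhill) and the 8 Per3 4/4 mice (labelled Coach), both copies of Per3 carried the human PER3 repeat exon with 5 or 4 tandem repeats, and the 8 wild-type (WT) mice carried the mouse gene. The knock-in (KI) and WT lines came from the same conditional founders on a C57BL/6 background with a minor contribution of the embryonic stem cells, after a cross to mice with a ubiquitously active Cre recombinase that the lines used here no longer expressed. Each line was then bred from homozygous pairs, so genotype and line cannot be told apart, and no mouse was left undisturbed, so no value here measures an effect of SD itself.

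Kv1 channels are voltage-gated potassium channels built as tetramers of alpha subunits, alike or mixed, to which beta subunits bind from the cytoplasm. They open near the threshold of the action potential, and in the brain they sit along axons, beside the nodes of Ranvier and in nerve terminals, where they limit repetitive firing and transmitter release. Beta subunits are related to aldo-keto reductases; they bring channels to the surface and, in some forms, block the pore soon after it opens. In the fruit fly, loss of the Kv1 gene Shaker or of its beta subunit Hyperkinetic shortens sleep, and mice without Kcna2 also sleep less.

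Levels are given as log2 of the background-subtracted signal minus log2 of the 75th percentile of the array, so that 0 is the brightness of that percentile and 1 unit is a doubling. They compare arrays at 1 probe and not 1 probe with another. All 10 probes were well above background on all 48 arrays and no spot was saturated, but 2 probes were dim, Kcna3 (signal 16.5 to 126) and 1 of the Kcnab1 probes (A_51_P320291, 15.5 to 164). A difference was called when the adjusted p of limma, Benjamini-Hochberg over all probes tested in that comparison, was below 0.05. The arrays were scanned on 3 days, and no WT array was scanned on day 1, which held replicates 1 to 4 of Per3 5/5 and of Per3 4/4. Days 2 and 3 held 5 and 3 WT mice. The slide and the day were the same for both tissues of a mouse. The tissue labels held for the markers: 10 of 10 cortical markers were higher in cortex and 11 of 11 hypothalamic markers tested were higher in hypothalamus. Brightness differed with genotype before scaling (75th percentile in hypothalamus 1048 in Per3 5/5, 928 in Per3 4/4 and 1505 in WT). Of 24 arrays per tissue, the hypothalamus of Per3 5/5 replicate 7 stood farthest from its group (median correlation with the others 0.967). Tissue from blocks holds many cell types, so fewer cells of a type and less RNA per cell cannot be told apart. A probe for Per3 itself was higher in Per3 5/5 than in WT mice by 0.69 in cortex (adjusted p = 0.00546) and by 0.47 in hypothalamus (adjusted p = 0.0147), and higher in Per3 4/4 mice in cortex (0.41, adjusted p = 0.0382). Its difference in Per3 4/4 hypothalamus, 0.17 (adjusted p = 0.349), was not called. Where the probe lies relative to the exchanged exon was not given in the sources used here, so it does not check the genotype labels.

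Promoter windows are shown for the genes on which the comparisons below turn, Kcna2, Kcna5 and Kcnab2, and for the pair of Kcnab1 starts that held a match to a clock motif. Each window is the 250 bases upstream of a RefSeq start, read 5′ to 3′ on the strand of the gene, and capitals mark an E-box with the letters CACGTG, the site bound by the CLOCK and BMAL1 activators that the Period proteins oppose.
Kcna2 GRCm38.p6 chr3:107101317-107101566, plus strand: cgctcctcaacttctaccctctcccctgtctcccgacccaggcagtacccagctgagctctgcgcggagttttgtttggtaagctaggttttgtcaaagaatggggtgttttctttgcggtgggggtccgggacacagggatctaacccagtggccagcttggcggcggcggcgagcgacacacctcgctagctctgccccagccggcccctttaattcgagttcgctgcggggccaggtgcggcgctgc
Kcna5 GRCm38.p6 chr6:126535556-126535805, minus strand: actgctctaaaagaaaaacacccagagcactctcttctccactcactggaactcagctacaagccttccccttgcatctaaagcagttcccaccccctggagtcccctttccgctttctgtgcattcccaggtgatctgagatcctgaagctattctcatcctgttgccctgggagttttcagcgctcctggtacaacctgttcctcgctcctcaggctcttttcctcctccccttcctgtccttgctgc
Kcnab2 GRCm38.p6 chr4:152477550-152477799, minus strand: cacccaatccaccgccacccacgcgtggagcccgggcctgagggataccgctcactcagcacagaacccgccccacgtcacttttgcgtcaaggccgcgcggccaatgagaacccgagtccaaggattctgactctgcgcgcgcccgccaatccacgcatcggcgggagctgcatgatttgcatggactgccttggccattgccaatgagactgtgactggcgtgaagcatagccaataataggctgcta
Kcnab1 GRCm38.p6 chr3:65108764-65109013, plus strand: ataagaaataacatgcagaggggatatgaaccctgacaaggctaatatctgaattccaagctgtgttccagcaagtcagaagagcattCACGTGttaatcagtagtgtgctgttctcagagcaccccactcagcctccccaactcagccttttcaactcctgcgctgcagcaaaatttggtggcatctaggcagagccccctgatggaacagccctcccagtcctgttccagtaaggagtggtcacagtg
Kcnab1 GRCm38.p6 chr3:65187853-65188102, plus strand: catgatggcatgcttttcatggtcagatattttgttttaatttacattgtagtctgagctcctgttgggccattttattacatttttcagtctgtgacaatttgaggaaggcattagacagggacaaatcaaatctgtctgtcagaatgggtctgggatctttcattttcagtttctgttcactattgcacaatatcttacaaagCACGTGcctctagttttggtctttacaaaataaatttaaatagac
The reference table gave 11 windows for 7 of the 9 genes, with 3 starts each for Kcnab1 and Kcnab2, of which the outermost is shown for Kcnab2, and no entry for Kcna1 and Kcnab3. On either strand, CACGTG was found in 2 of the 11 windows, both of Kcnab1, against 6.02% of 32851 promoter windows of this length. The cAMP response element TGACGTCA (1.55% of windows) and the D-box TTATGTAA (0.819% of windows) were in none of the 11. The motifs do not overlap each other in these windows. On the chromosomes, Kcna3 and Kcna2 were next to each other on chromosome 3, followed by Kcna10, and Kcna5, Kcna1 and Kcna6 were adjacent on chromosome 6. Kcnab2 lies on chromosome 4, as Per3 does, with 23 protein-coding genes between them.

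Between the KI genotypes no Kv1 probe was called in either tissue, which does not show that the levels were equal. The comparison of Per3 5/5 with Per3 4/4 mice asks whether the number of repeats matters, and limma called 0 of the 10 probes in cortex and 0 of 10 in hypothalamus, where 0% of all probes tested were called as well. At an unadjusted p below 0.05 there was 1 Kv1 probe in each tissue, against 15.7% of all probes in cortex and 16.2% in hypothalamus. The probe was Kcna2 both times. Kcna2 was 0.33 higher in Per3 5/5 mice in cortex (95% CI 0.01 to 0.64, adjusted p = 0.309). Its difference in hypothalamus was 0.65 (95% CI 0.18 to 1.11, adjusted p = 0.239). For the other 9 probes the 95% CI of the difference included 0 in both tissues. The smallest adjusted p over all probes was 0.201 in cortex and 0.172 in hypothalamus.

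In Per3 5/5 mice Kcna2 was up-regulated against WT mice in both tissues. Kcna2 encodes an axonal delayed-rectifier subunit that often assembles with Kcna1. The hypothalamic level ran from -1.08 through a median of -0.49 to 0.73 in the 8 Per3 5/5 mice, from -1.30 through -0.85 to -0.80 in Per3 4/4 mice, and from -2.04 through -1.08 to -0.54 in WT mice. Per3 5/5 mice thus spread over a range that reached above both other groups, with 5 of 8 above every WT mouse. The mean was 0.85 higher than in WT mice (SE 0.23, 1.80-fold, adjusted p = 0.0137). In cortex the level ran from -0.21 through 0.15 to 1.01 in Per3 5/5 mice, from -0.33 through -0.08 to 0.33 in Per3 4/4 mice, and from -0.86 through -0.35 to 0.10 in WT mice. Cortical means differed by 0.57 between Per3 5/5 and WT mice (SE 0.15, 1.48-fold, adjusted p = 0.0208), and 4 of 8 Per3 5/5 mice lay above every WT mouse. Per3 4/4 mice were between the groups, at 0.24 above WT mice in cortex (adjusted p = 0.26) and 0.20 in hypothalamus (adjusted p = 0.557).

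**Figure D1:**
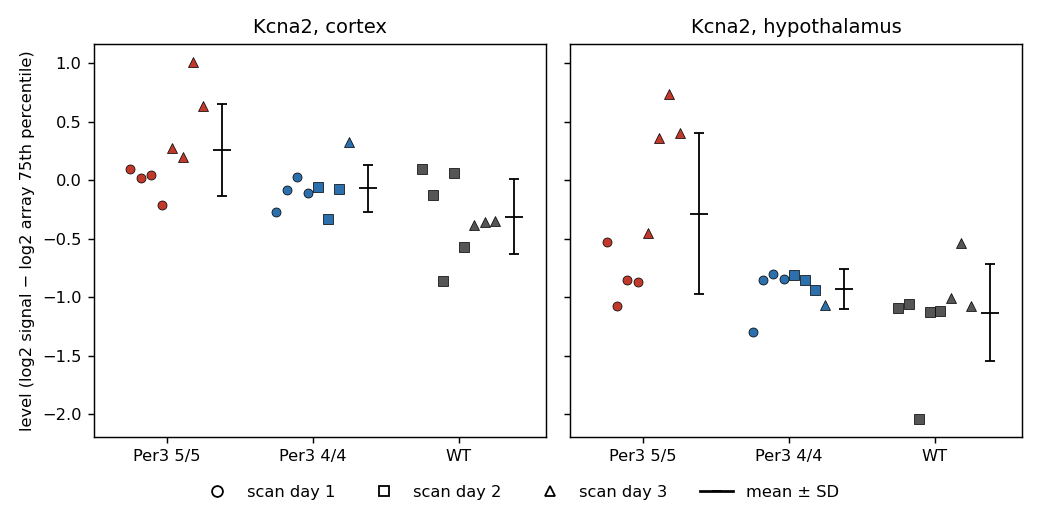
Level of Kcna2 in each mouse (log2 signal minus log2 of the array's 75th percentile) in cortex (left) and hypothalamus (right), by genotype, with marker shape for the scan day and the mean ± SD (n = 8) beside each group. In hypothalamus 3 Per3 5/5 mice of scan day 3, at 0.36 to 0.73, lie above all other arrays, while the 4 of scan day 1 lie between -1.08 and -0.52.

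Within the Per3 5/5 group the Kcna2 level followed the scan day. In hypothalamus the 4 mice of day 1 read -0.52, -1.08, -0.85 and -0.86, and the 4 mice of day 3 read -0.45, 0.36, 0.73 and 0.40. All of day 3 lay above all of day 1, with means of -0.83 ± 0.23 and 0.26 ± 0.50 (SD, n = 4 each). Cortex gave -0.02 ± 0.14 on day 1 and 0.53 ± 0.37 on day 3. The 3 WT mice of day 3 averaged -0.87 ± 0.29 (SD) in hypothalamus, and the 4 Per3 4/4 mice of day 1 averaged -0.95 ± 0.23 (SD), beside the -0.83 of the Per3 5/5 mice of that day. The difference of Per3 5/5 from WT mice with scan day in the model was 0.93 in hypothalamus (adjusted p = 0.0381) and 0.65 in cortex (adjusted p = 0.058). Among the arrays of day 3 alone it was 1.13 and 0.89 (adjusted p = 0.231 and 0.0932). Whether day 1 mice of this genotype differ from WT mice cannot be told apart from the day, because no WT array was scanned on that day. In the fit without scan day, leaving out any 1 array kept the call in hypothalamus (0.70 to 0.96, highest adjusted p = 0.0295). The same held in cortex (0.46 to 0.64, highest adjusted p = 0.0485). Pairs of mice chosen after seeing the data were also left out together. Without WT replicate 3 and Per3 5/5 replicate 7 the hypothalamic difference was 0.57 (adjusted p = 0.046). Without WT replicates 3 and 7 the cortical one was 0.47 (adjusted p = 0.0788).

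Kcna5 was lower in hypothalamus of both KI genotypes. This subunit is a delayed rectifier best known from heart and vascular muscle, and it is present in part of the brain. WT mice read 0.29, -0.27, 0.12, -0.26, -0.29, 0.03, -0.35 and 0.29 (replicates 1 to 8). Per3 5/5 mice ran from -0.95 through a median of -0.83 to -0.46, all 8 below every WT mouse, and Per3 4/4 mice from -0.96 through -0.85 to -0.32, 7 of 8 below every WT mouse. The difference from WT was -0.72 in Per3 5/5 mice (SE 0.11, 1.64-fold lower, adjusted p = 0.00111) and -0.74 in Per3 4/4 mice (SE 0.11, 1.67-fold lower, adjusted p = 0.0017). Both comparisons use the same 8 WT arrays and are not independent. With scan day in the model the differences were -0.62 (adjusted p = 0.0275) and -0.63 (adjusted p = 0.025), and leaving out any 1 array kept both calls. The Per3 5/5 level was -0.88 ± 0.05 on day 1, which held no WT array, and -0.67 ± 0.15 on day 3 (SD, n = 4 each). Within 1 scan day neither difference was called.

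Cortical Kcna5 varied widely between mice of each genotype. Levels ran from -3.87 through -2.45 to -1.75 in Per3 5/5 mice, from -3.31 through -2.76 to -1.45 in Per3 4/4 mice, and from -2.49 through -2.14 to -0.27 in WT mice. The groups overlapped, and the differences from WT, -0.84 in Per3 5/5 mice (adjusted p = 0.107) and -0.88 in Per3 4/4 mice (adjusted p = 0.0698), were not called. WT replicates 3 and 7 were the highest of all 24 cortical arrays at -0.27 and -0.66. These were also the arrays with the highest summed level of 8 striatal markers, 7.32 and 6.32, where the 24 arrays spanned 4.14 to 7.32. Without both mice the differences were -0.41 (adjusted p = 0.414) and -0.45 (adjusted p = 0.32). The part of striatal tissue in the cortical Kcna5 level was not tested.

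Kcna4 was lower in cortex of Per3 4/4 mice. It encodes the fast-inactivating, A-type member of the family. Per3 4/4 mice ran from -0.43 through -0.12 to 0.11, WT mice from 0.24 through 0.32 to 0.74, and these groups did not overlap. The difference was -0.51 (SE 0.15, 1.42-fold lower, adjusted p = 0.0161). Per3 5/5 mice overlapped both ranges, from -0.38 through -0.03 to 0.67, and again split by scan day, with -0.30 ± 0.09 on day 1 and 0.48 ± 0.26 on day 3 (SD, n = 4 each). With scan day in the model the Per3 4/4 difference was -0.27 (adjusted p = 0.149), and without WT replicates 3 and 7 it was -0.45 (adjusted p = 0.0552). In hypothalamus the differences from WT were -0.43 in Per3 4/4 mice (adjusted p = 0.0515) and -0.31 in Per3 5/5 mice (adjusted p = 0.133), neither called.

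Kcna1, Kcna3 and Kcna6 had no called difference between genotypes in the fit of 3 group means, but Kcna1 and Kcna3 crossed the threshold in Per3 4/4 mice under other settings. Kcna1, the subunit mutated in episodic ataxia, ran in cortex from 4.06 to 4.76 in Per3 5/5, 4.02 to 4.67 in Per3 4/4 and 4.47 to 4.76 in WT mice. Its difference in Per3 4/4 mice was -0.25 (adjusted p = 0.0607), and it became -0.36 with scan day in the model (adjusted p = 0.0308), the sole Kv1 call in cortex in that fit. It was also called with normexp (-0.26, adjusted p = 0.0383), quantile normalization (-0.27, adjusted p = 0.0427), both genotypes alone in the fit (adjusted p = 0.0304) and the methods' test (adjusted p = 0.0296). Kcna3, the channel of lymphocytes and microglia that is found in some neurons as well, read 0.52 higher in hypothalamus of Per3 4/4 mice (adjusted p = 0.057) and 0.27 higher in Per3 5/5 mice (adjusted p = 0.308). These values became 0.26 (adjusted p = 0.418) and -0.01 (adjusted p = 0.977) with scan day in the model, and the Per3 4/4 difference was called with both genotypes alone in the fit (adjusted p = 0.0371) and with the methods' test (adjusted p = 0.0495). Cortical Kcna3 read 0.31 higher in Per3 4/4 mice (adjusted p = 0.0995) and 0.28 higher in Per3 5/5 mice (adjusted p = 0.152), which became 0.09 and 0.04 with scan day in the model, while normexp gave 0.56 in Per3 4/4 mice (adjusted p = 0.00058). The hypothalamic Kcna3 level of Per3 5/5 mice was -3.54 ± 0.11 on day 1 and -4.20 ± 0.38 on day 3 (SD, n = 4 each), and the summed level of 9 microglial markers in the same arrays was 4.37 ± 0.15 and 3.58 ± 0.48. Of these 9 markers, 3 were called lower in Per3 5/5 than in WT hypothalamus, against 8.55% of all probes, and 0 with scan day in the model. In Per3 4/4 against WT hypothalamus 0 of the 9 were called, against 15.1% of all probes. Between tissues all 9 were called lower in hypothalamus (35.6% of all probes), where Kcna3 was higher. WT sums ranged from 4.20 to 4.79, and the markers' part in the Kcna3 level was not tested. Kcna6, a neuronal delayed rectifier, differed from WT by at most 0.19 in both tissues and both KI genotypes (smallest adjusted p = 0.226).

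Among the beta subunits, Kcnab2 was up-regulated in both KI genotypes and in both tissues. Kcnab2 is the main beta subunit of the brain, and it carries Kv1 channels to axons without blocking the pore. In hypothalamus WT mice read 1.37, 1.81, 1.37, 1.66, 1.76, 1.60, 2.04 and 1.28 (replicates 1 to 8), Per3 5/5 mice ran from 1.97 through 2.20 to 2.43 and Per3 4/4 mice from 1.91 through 2.06 to 2.16. All WT mice except replicate 7 lay below every KI mouse. The mean was 0.59 above WT in Per3 5/5 mice (SE 0.09, 1.51-fold, adjusted p = 0.00126) and 0.45 in Per3 4/4 mice (SE 0.09, 1.37-fold, adjusted p = 0.00761). With scan day in the model it was 0.61 (adjusted p = 0.0197) and 0.49 (adjusted p = 0.0341), and no single array decided either call. WT replicate 8, the lowest for Kcnab2, also had the highest summed level of 7 pituitary markers, 9.84 against 4.22 to 5.01 in the other WT mice, and the part of pituitary tissue in its level was not tested.

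Cortical Kcnab2 ran from 3.29 through 3.71 to 3.94 in Per3 5/5 mice, from 3.46 through 3.60 to 3.96 in Per3 4/4 mice, and from 3.24 through 3.43 to 3.47 in WT mice. In each KI genotype 7 of 8 mice lay above every WT mouse. The difference from WT was 0.29 in Per3 5/5 mice (SE 0.08, adjusted p = 0.031) and 0.28 in Per3 4/4 mice (SE 0.08, adjusted p = 0.0194). Both were 0.16 with scan day in the model (adjusted p = 0.261 and 0.192), and the KI mice of day 1, at 3.78 ± 0.13 in Per3 5/5 and 3.81 ± 0.15 in Per3 4/4 (SD, n = 4 each), were on average above those of days 2 and 3, at 3.56 in Per3 5/5 on day 3 and 3.56 in Per3 4/4 on day 2. Leaving out 1 of 6 arrays (Per3 5/5 replicates 1, 3 or 4, WT replicates 3, 5 or 6) also ended the Per3 5/5 call.

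Both probes of Kcnab1, which encodes a beta subunit whose free end blocks the pore, disagreed on the direction. The dim probe (A_51_P320291) was higher in KI mice: by 0.48 in Per3 5/5 cortex (adjusted p = 0.0125), 0.40 in Per3 4/4 cortex (adjusted p = 0.0174) and 0.46 in Per3 5/5 hypothalamus (adjusted p = 0.00828), with 0.30 in Per3 4/4 hypothalamus (adjusted p = 0.0709). The bright probe (A_52_P568895) was lower: by -0.41 in Per3 4/4 cortex (adjusted p = 0.0133) and -0.41 in Per3 4/4 hypothalamus (adjusted p = 0.0498), with -0.30 in Per3 5/5 cortex (adjusted p = 0.0799) and -0.38 in Per3 5/5 hypothalamus (adjusted p = 0.056). In hypothalamus the dim probe ran from -4.57 to -3.69 in Per3 5/5, -4.56 to -3.93 in Per3 4/4 and -4.85 to -4.25 in WT mice, and the bright probe from 1.37 to 2.48, 1.51 to 2.13 and 1.70 to 2.58. The KI and WT ranges overlapped at both probes. Scan day in the model ended both cortical calls of the dim probe (0.38, adjusted p = 0.12 in Per3 5/5 mice and 0.30, adjusted p = 0.139 in Per3 4/4 mice) and left its call in Per3 5/5 hypothalamus (0.53, adjusted p = 0.0423). It also ended both calls of the bright probe, at -0.38 in Per3 4/4 cortex (adjusted p = 0.0637) and -0.23 in Per3 4/4 hypothalamus (adjusted p = 0.36). Both match the same RefSeq entry, the exons they lie in were not given in the sources used here, and no direction is stated for the gene. Both directions were kept under median centring, quantile normalization and normexp.

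Kcnab3, a brain beta subunit, was up-regulated in hypothalamus of Per3 5/5 mice. Levels ran from -1.23 through -0.61 to -0.27 in Per3 5/5 mice, from -1.19 through -0.91 to -0.43 in Per3 4/4 mice, and from -1.83 through -1.24 to -0.83 in WT mice. The ranges overlapped, and the mean was 0.58 above WT in Per3 5/5 mice (SE 0.18, adjusted p = 0.0244) and 0.49 in Per3 4/4 mice (adjusted p = 0.0606). With scan day in the model the first was 0.55 (adjusted p = 0.149), and without WT replicate 1 or 4 it was 0.51 each (highest adjusted p = 0.0555). Cortical Kcnab3 differed from WT by 0.07 in Per3 5/5 mice (adjusted p = 0.76) and by -0.04 in Per3 4/4 mice (adjusted p = 0.849).

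**Figure D2:**
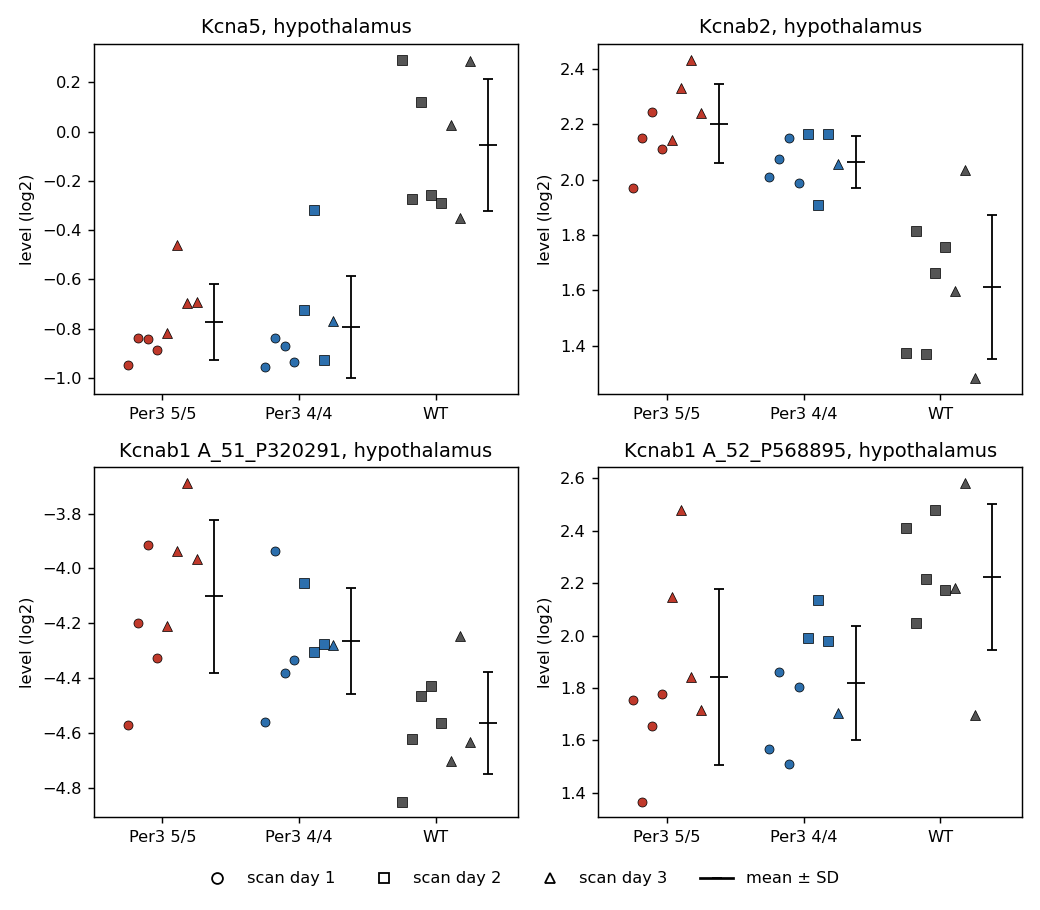
Hypothalamic level (log2, relative to the array's 75th percentile) in each mouse for Kcna5, Kcnab2 and both probes of Kcnab1, by genotype, with marker shape for the scan day and mean ± SD (n = 8). Kcna5 lies below the WT range in all Per3 5/5 mice, Kcnab2 above it in 7 of 8, and the Kcnab1 probes shift in opposite directions.

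Counted over the family, 3 of 10 probes were called in Per3 5/5 against WT cortex, all higher, where 12.4% of all probes tested were called (8.44% higher, 3.91% lower). In Per3 4/4 cortex it was 4 of 10 (2 higher, 2 lower) against 22.5% of all probes (13.4% higher, 9.14% lower). Hypothalamus gave 5 of 10 in Per3 5/5 mice (4 higher, 1 lower) against 18.8% (10.3% higher, 8.55% lower). In Per3 4/4 hypothalamus it was 3 of 10 (1 higher, 2 lower) against 15.1% (8.24% higher, 6.81% lower). The median difference over the 10 probes was 0.09, 0.04, 0.23 and 0.09 in the same order, beside 0.06, 0.02, 0.03 and 0.02 over all probes. The counts were 0, 1, 4 and 2 with scan day in the model, against 0.986%, 7.72%, 2.1% and 0.745% of all probes. With the slide as a fixed term 0 probes were called anywhere on the array. No slide held both Per3 5/5 and WT arrays, and Per3 4/4 and WT arrays shared slides 4 and 6 alone. That fit therefore cannot decide the differences from WT. The share of higher calls over all probes depended on scaling. It was 68.4% and 59.4% in Per3 5/5 and Per3 4/4 cortex and 54.6% and 54.8% in hypothalamus, beside 19.2%, 34.2%, 34.5% and 31.8% with median centring and 84.7%, 83.8%, 54.7% and 63.8% with normexp. Quantile normalization gave 48.2% in Per3 5/5 cortex. Median centring moved the median of all probes by -0.11 in Per3 5/5 cortex, and normexp moved it by 0.21 in Per3 4/4 cortex and 0.14 in Per3 4/4 hypothalamus. None of the 15 called Kv1 differences changed sign under any alternative.

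**Figure D3:**
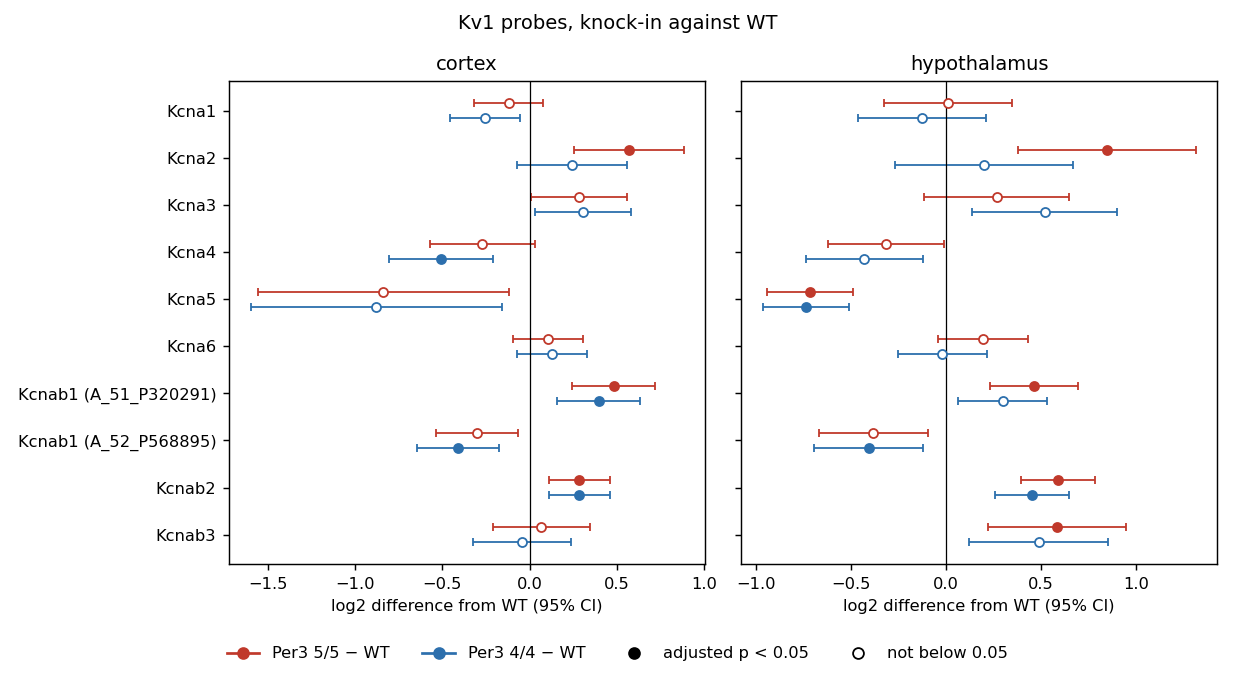
Difference of Per3 5/5 and of Per3 4/4 from WT mice (log2, with 95% CI) for each Kv1 probe in cortex and hypothalamus, filled where the adjusted p was below 0.05. Kcna5 in hypothalamus lies at -0.72 and -0.74, Kcnab2 lies right of 0 in both tissues, and the Kcnab1 probes lie on opposite sides of 0.

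**Figure D4:**
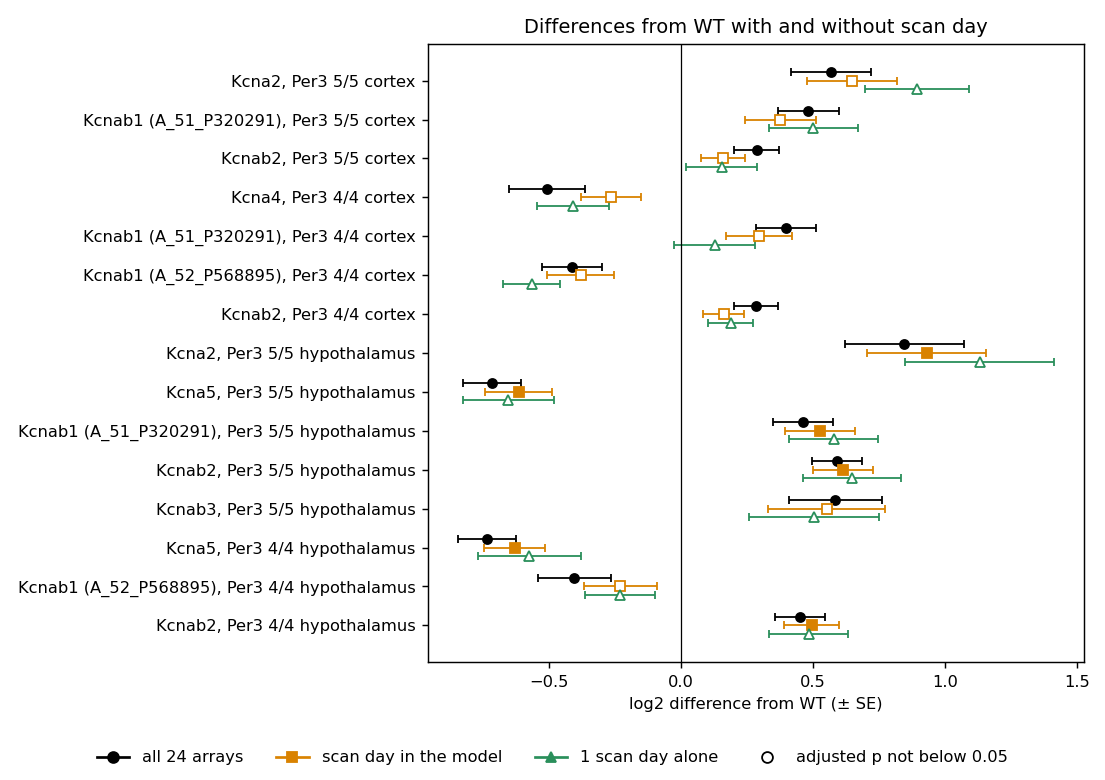
The 15 called differences from WT (log2 ± SE) with all 24 arrays of a tissue, with scan day as a term, and within 1 scan day that held both genotypes (day 3 for Per3 5/5, day 2 for Per3 4/4), filled where the adjusted p was below 0.05. Directions are shared by all 3 fits, 6 calls remain with scan day as a term and 0 within 1 scan day. Over all probes, the calls within 1 scan day were 1 and 164 in Per3 5/5 and Per3 4/4 cortex, and 1 and 5 in hypothalamus.

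The family differed widely between tissues. Compared within mice, all 10 probes were called between hypothalamus and cortex, 3 higher and 7 lower in hypothalamus, where 73.6% of all probes tested were called (38.1% higher, 35.6% lower). Kcnab2 was 1.62 lower in hypothalamus (3.06-fold, adjusted p = 4.1e-19), and each of the 24 mice showed it, with differences from -2.14 to -1.05. Kcna1 (-1.54, adjusted p = 5.39e-15), Kcnab3 (-1.44, adjusted p = 4.6e-14) and both Kcnab1 probes (-1.21 and -1.16, adjusted p = 3.79e-14 and 2.89e-13) were lower in hypothalamus in all 24 mice as well. At Kcna1, Kcnab2 and Kcnab3 the arrays of the tissues did not overlap, which held for 11.5% of all probes tested. Kcna2 was 0.74 lower (adjusted p = 7.59e-10), with Per3 5/5 replicate 6 the exception at 0.16 higher. Kcna6 was 0.24 lower (adjusted p = 0.00162), with 3 mice the other way, and 0.12 lower under quantile normalization (adjusted p = 0.069).

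In the other direction, Kcna5 was 1.78 higher in hypothalamus (3.43-fold, adjusted p = 4.11e-11) in 24 of 24 mice, with differences from 0.31 to 3.02. The smallest were those of WT replicates 3 and 7, the mice with the highest cortical Kcna5. Kcna3 was 0.61 higher (adjusted p = 3.02e-09) in 23 of 24 mice, the exception being WT replicate 3, and 0.24 higher under normexp. Normexp changed the background correction and added an offset, and the part of either in the smaller value was not tested. Kcna4 differed by 0.10 (adjusted p = 0.0355) in 18 of 24 mice, and 10 of 24 single-mouse omissions ended that call. Within a genotype, 8 of 10 probes were called in Per3 5/5 mice, 9 in Per3 4/4 mice and 8 in WT mice, against 58.6%, 59% and 59.5% of all probes. At 8 of 10 probes the genotype means of 1 tissue all lay on 1 side of those of the other, the exceptions being Kcna2 and Kcna4, and 53.2% of all probes tested did so. For Kcna5 the order of the means ran from WT hypothalamus (-0.06) through Per3 5/5 (-0.77) and Per3 4/4 (-0.79) hypothalamus to WT (-1.74), Per3 5/5 (-2.58) and Per3 4/4 (-2.62) cortex, with the KI genotypes not distinguished in either tissue. For Kcnab2 it ran from Per3 5/5 (3.67), Per3 4/4 (3.67) and WT (3.39) cortex to Per3 5/5 (2.20), Per3 4/4 (2.06) and WT (1.61) hypothalamus, and again the KI genotypes were not distinguished.

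**Figure D5:**
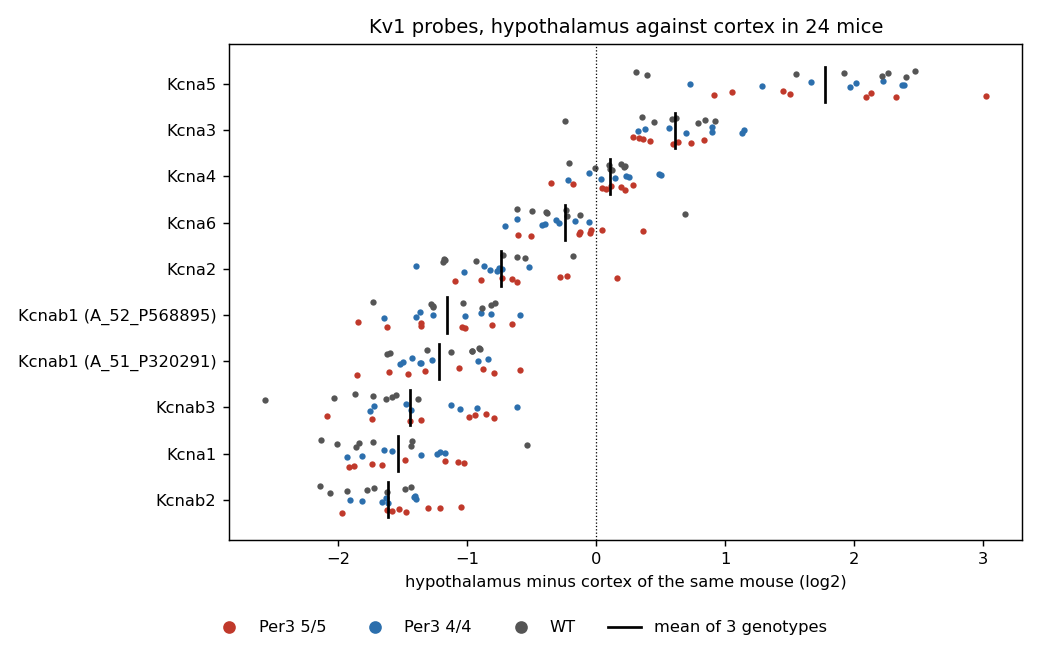
Hypothalamus minus cortex of the same mouse (log2) for each Kv1 probe in 24 mice, coloured by genotype, with a bar at the mean of the 3 genotypes. Kcna5 is above 0 in every mouse, and Kcnab2, Kcna1, Kcnab3 and both Kcnab1 probes are below 0 in every mouse.

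The genotype difference was also compared between tissues. No Kv1 probe was called in any of the 3 interaction tests, where limma called 0% (Per3 5/5 against Per3 4/4), 0.00961% (Per3 5/5 against WT) and 0.0032% (Per3 4/4 against WT) of all probes. At an unadjusted p below 0.05 there were 0, 2 and 1 Kv1 probes, against 3.83%, 6.22% and 5% of all probes. The difference of Per3 5/5 from WT was larger in hypothalamus than in cortex by 0.52 for Kcnab3 (95% CI 0.10 to 0.93, adjusted p = 0.791) and 0.30 for Kcnab2 (95% CI 0.05 to 0.56, adjusted p = 0.791). For Kcnab3 in Per3 4/4 mice it was larger by 0.53 (95% CI 0.12 to 0.95, adjusted p = 0.925). A call in 1 tissue and not in the other, as for Kcna5 and Kcnab3, is therefore not shown to differ between tissues.

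The proteins that anchor Kv1 channels on axons and at synapses were followed as a list of 22 genes, of which 21 had a tested probe and Adam22 had none. In Per3 5/5 hypothalamus 9 were up-regulated and 1 was lower, where 10.3% of all probes were called higher and 8.55% lower. The 9 were the paranodal Cntnap1 (0.57) and juxtaparanodal Cntn2 (0.43), the transmembrane Adam11 (0.54), the secreted Lgi3 (0.39) and Lgi4 (0.48), the scaffolds Dlg2 (0.39) and Dlg4 (0.64, adjusted p = 0.0027), and Nfasc (0.63) and Sptbn4 (0.40) of nodes and axon initial segments. Dlg3, a further scaffold, was lower (-0.34). In Per3 4/4 hypothalamus 4 were up-regulated (Cntn2 0.31, Lgi3 0.38, Lgi4 0.35 and Dlg4 0.45) and 2 were lower (Dlg1 -0.38 and Dlg3 -0.41), against 8.24% and 6.81% of all probes. In cortex 5 were up-regulated in Per3 5/5 mice (Cntnap1 0.43, Adam11 0.35, Dlg4 0.52, Nfasc 0.41 and Sptbn4 0.29), against 8.44% of all probes. Per3 4/4 cortex had 2 up-regulated (Cntnap1 0.28 and Dlg4 0.70, adjusted p = 0.0022) and 3 lower (Lgi2 -0.42, Dlg3 -0.26 and the axonal anchor Ank3 -0.32), 5 of 21 in all against 22.5% of all probes. Dlg4, which encodes the postsynaptic scaffold PSD-95, was thus higher in all 4 comparisons, which share their WT arrays within a tissue. The median difference over the 21 genes was 0.21 and 0.25 in hypothalamus and 0.02 and 0.00 in cortex, for Per3 5/5 and Per3 4/4 in turn. With scan day in the model a single one of these calls was kept, Dlg4 in Per3 4/4 cortex (0.62, adjusted p = 0.0227). Markers of oligodendrocytes, the cells that form the sheath these proteins border, were called higher in KI hypothalamus for 4 (Per3 5/5) and 7 (Per3 4/4) of 9 tested genes (10.3% and 8.24% of all probes), and for 0 and 2 with scan day in the model. Their summed levels were 7.85 to 8.18 in Per3 5/5, 7.95 to 8.43 in Per3 4/4 and 7.56 to 8.12 in WT mice. Their part in these values was not tested.

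By tissue, 17 of the 21 genes were called, 6 higher and 11 lower in hypothalamus (median -0.15), against 73.6% of all probes. Dlg2 (-1.40), Dlg4 (-1.14) and Dlg1 (-0.82) were among those lower in hypothalamus, and Cntn2 (0.50), Epb41l3 (0.44) and Cntnap2 (0.28) among those higher.

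Likeness between patterns was described over the 24 arrays of each tissue, which share scan days and genotypes, by the smaller of both Pearson r, over 15249 genes. For Kcna2 the closest were Usp15 (a deubiquitinase, r = 0.91 in cortex and 0.93 in hypothalamus), Atrx (a chromatin remodeller, 0.91 and 0.94), Decr2 (a peroxisomal reductase, 0.90 and 0.91), Pik3r1 (a regulatory subunit of phosphoinositide kinase, 0.88 and 0.88) and Zfp354c (a zinc finger protein, 0.87 and 0.90). The closest gene was Lemd3 for Kcna4 (0.90 and 0.89), Ilrun for Kcnab2 (0.88 and 0.87), Usp45 for the bright Kcnab1 probe (0.85 and 0.85), Sez6l for Kcna3 (0.84 and 0.85) and Dner for Kcna5 (0.80 and 0.87). For Psmb10 with Kcna6 (0.74 and 0.79), Foxp2 with Kcna1 (0.72 and 0.72) and Vamp1 with Kcnab3 (0.67 and 0.60) the values were lower. Within the family, after removal of the genotype means, 29 of 45 pairs of probes had the same sign of correlation in both tissues. Kcna4 ran with the bright Kcnab1 probe (0.61 and 0.75) and Kcna1 with Kcna6 (0.57 and 0.75), while Kcna3 ran against Kcna4 (-0.63 and -0.69). No other pair exceeded 0.5 in size with the same sign in both tissues.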

How the data were processed

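RNA of frontal cortex and hypothalamus of 24 mice was labelled with Cy3 and hybridised to 48 one-colour Agilent arrays, 4 to a slide, and the authors extracted the images with Feature Extraction 10.7.1.1. The deposited scanner values are intensity per spot after the authors' background subtraction, with other columns holding quality calls per spot. A deposited matrix of the whole series holds the authors' log2 values, which match the scanner values once each probe is centred on its median in a tissue, and served as an alternative. Groups came from the labels, and each mouse is a separate animal.

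Control spots and outlier spots were left out (48 to 172 outlier spots per array), spots of a probe were averaged, and log2 intensity was taken relative to the array's 75th percentile. Testing required a probe to exceed background clearly in 6 or more of the 8 arrays of some group (29715 probes in cortex, 30735 in hypothalamus, 31228 between tissues). limma 3.58.1 (R 4.3.3) was fitted per tissue to 3 group means, and tissues were compared on the differences within mice. Tests were two-sided, with Benjamini-Hochberg adjustment over all probes tested. Both tissues of a mouse deviated together from their group means in 24 of 24 mice (r from 0.109 to 0.688). They shared the animal, the slide and the scan day, which cannot be told apart here. The number of arrays limits the precision. The procedure was tested on simulated data.

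The 9 genes, the gene lists and the tests were chosen with earlier results of these data known. The text names all probes of the 9 genes, channel partners that were called (at the brightest probe), the gene with the most similar pattern to each (5 for Kcna2) and Per3. Kcna7 and Kcna10 matched no probe by accession and were not analysed here. Alternatives changed the background correction, filter, scaling, model, batch terms and arrays included. Leaving out WT replicates 3 and 7 in cortex, or WT replicate 3 and Per3 5/5 replicate 7 in hypothalamus, was chosen after seeing the data. Promoter sequences came from RefSeq (GRCm38.p6).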

Additional observations from a re-analysis of the deposited data

Results flagged for a closer look

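Each of the 10 probes in each of the 6 groups gave a set of 8 values, 60 sets in all. In 6 of the 60 sets 1 value stood apart from the rest by Dixon's criterion, where chance gives about 1 in 20 independent sets. The sets share arrays and are not independent, so that rate is no firm yardstick for the count. WT replicate 3 accounted for 4 of the 6. Its hypothalamus had a Kcna1 level of 4.01 (next highest 3.25), a Kcna2 level of -2.04 (next lowest -1.12) and a Kcna3 level of -5.13 (next lowest -4.15), and its cortex had a Kcna4 level of 0.74 (next highest 0.39). The hypothalamic Kcna1 level of Per3 4/4 replicate 1 was 2.37 (next lowest 2.84). The hypothalamic Kcna5 level of Per3 4/4 replicate 6 was -0.32 (next highest -0.73).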

How the results depend on the processing

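None of the 15 called differences from WT changed sign under 14 alternatives each, and 149 of 210 values stayed called. For tissue, 238 of 245 values stayed called and 0 changed sign. The number of Kv1 probes called in Per3 5/5 cortex (3) was 0 once scan day was a block, 0 within 1 scan day, 0 with a fixed slide block and 1 without WT replicates 3 and 7. In Per3 4/4 cortex (4) it was 2 with median centring, 1 once scan day was a block, and 0 within 1 scan day or with a fixed slide block. In Per3 5/5 hypothalamus (5) it was 3 with normexp, 3 with the methods' t-test after Benjamini-Hochberg, and 0 with slide as a fixed block and within 1 scan day. In Per3 4/4 hypothalamus (3) it was 6 with the methods' t-test, 6 with both genotypes alone in the fit, 6 with the replicate block, and 0 with slide as a fixed block and within 1 scan day. Over all probes, calls in Per3 5/5 cortex went from 3670 to 293, 1, 0 and 1241 under the settings named, in that order. In Per3 4/4 cortex they went from 6696 to 5466, 2294, 164 and 0. In Per3 5/5 hypothalamus they went from 5788 to 1957, 4051, 0 and 1. In Per3 4/4 hypothalamus they went from 4628 to 6315, 6379, 5358, 0 and 5. The cause of these shifts was not tested. Fits within 1 scan day also held fewer arrays. The fixed slide block cannot decide the differences from WT, since no slide held both Per3 5/5 and WT arrays and few held Per3 4/4 and WT. The replicate block gave 3, 5 and 6 probes in the other comparisons with WT (3671, 6899 and 6407 over all probes). Same-numbered mice of different genotypes are separate animals, but some shared a slide, as replicates 1 to 4 of Per3 5/5 and Per3 4/4 did. Leaving out each mouse gave 2 to 4 (Per3 5/5 cortex), 4 to 6 (Per3 4/4 cortex), 4 to 7 (Per3 5/5 hypothalamus) and 2 to 6 probes (Per3 4/4 hypothalamus, 5 without Per3 5/5 replicate 7 and 6 without Per3 4/4 replicate 6), 9 to 10 for tissue, and 0 for Per3 5/5 against Per3 4/4 and for the interactions. Without the replicate block, Kcna4 was no longer called between tissues (adjusted p = 0.282), nor with median centring (0.03, adjusted p = 0.62). The bright Kcnab1 probe in Per3 4/4 hypothalamus stayed called in 6 of 24 single omissions (adjusted p from 0.0278 to 0.103).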
